A study of Homo sapiens with 6 samples.

Results

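The genes described here are 34 components of the TGFB and activin signalling pathway: ligands, latent-binding proteins, receptors, SMADs and the adaptors that act on them. They were chosen by symbol from the 60624 genes of a table of RNA-seq read counts, and all 34 symbols were found in it. The RAVER1 knockout group is 3 libraries of A-549 cells, a line derived from a human lung cancer, in which RAVER1 was deleted with CRISPR/Cas9. The WT group is 3 libraries of parental A-549 cells. No ligand, inhibitor or other treatment is named for either group beyond the genotype. KO2 stands in the title of every knockout library, and whether it marks 1 clone is not stated, so the p-values rest on the spread among these 6 libraries, which may be technical. RAVER1 is an RNA-binding cofactor of the splicing regulator PTBP1, and the series title places it between TGFB signalling, epithelial-mesenchymal transition and miRNA activity.

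TGFB and activin ligands are secreted dimers. TGFB is stored in the matrix in a latent complex with a latent TGFB-binding protein. A ligand brings together type II and type I receptor kinases. The type II receptor phosphorylates the type I receptor, which then phosphorylates receptor-regulated SMADs. SMAD2 and SMAD3 carry the TGFB and activin signal, SMAD1, SMAD5 and SMAD9 the BMP signal, and each set enters the nucleus with SMAD4. In lung carcinoma cells such as A549, TGFB is widely used to induce epithelial-mesenchymal transition.

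Total counts were 39693041, 39910127 and 31200927 in the knockout libraries and 34359060, 29811747 and 32078488 in the parental libraries. RAVER1 itself had 110, 112 and 79 counts in the knockout libraries and 2510, 1996 and 2285 in the parental libraries, so the labels and the targeted gene matched. Levels are given as CPM, the usual per-library scaling of counts, computed with the TMM-adjusted library size. Of 8 epithelial markers all 8 passed the low-count filter, and their summed level was 6418 to 7098 CPM in knockout and 8482 to 9338 CPM in parental libraries. CDH1, KRT8, KRT18, KRT19, EPCAM and CLDN4 were lower in knockout cells and KRT7 was higher. The surfactant genes SFTPA1 and SFTPA2 and the lung factor NKX2-1, defining genes of alveolar cells, were at or near 0 in both groups, and ABCA3 made up nearly all of the 76.4 to 86.9 CPM in knockout and 102.6 to 108.8 CPM in parental libraries that 8 alveolar type 2 markers summed to. ABCA3 was lower in knockout cells. Markers of leukocytes summed to at most 9.49 CPM in knockout and 10.9 CPM in parental libraries, with CD3E at 0 in all libraries. Nearly all of that sum was CD14 (means of 4.51 CPM in knockout and 5.49 CPM in parental cells) and ITGAM (4.597 and 4.555 CPM). Neither gene was called. Markers of endothelial cells summed to at most 0.129 and 0.0658 CPM, with PECAM1 at 0. Fibroblast markers summed to 65.0 to 69.0 CPM in knockout and 47.0 to 50 CPM in parental libraries, nearly all of it COL1A1, with DCN at 0. The 3 fibroblast markers tested, COL1A1, COL3A1 and PDGFRA, were all higher in knockout cells, where COL3A1 and PDGFRA had means of only 0.78 and 0.58 CPM. The part of these marker differences in the results below was not tested.

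In knockout cells the receptor TGFBR2 and the activin subunit gene INHBB stood at about 49.2% and 49.8% of their parental level, while the co-receptor TGFBR3, the receptor BMPR2, the matrix protein LTBP1 and the signal transducer SMAD3 were higher. Of the 34 members, 30 had enough counts to be tested, and 18 of these differed between the groups at an adjusted p under 0.05 in edgeR's quasi-likelihood test, 10 higher and 8 lower in knockout cells. That is 60% of the tested members, where 41.4% of all 16652 genes tested passed (21.3% higher and 20.1% lower). Chromosome 2, whose genes tended to be higher in knockout cells, carries 6 of the tested members, among them BMPR2, LTBP1 and INHBB. Of the 24 members tested elsewhere 50% were called, beside 39.1% of all genes tested elsewhere. The median log2 fold change of the tested members was 0.073, beside 0.0019 over all genes tested, and their median absolute change was 0.20, beside 0.19. The groups did not overlap for 19 of the 30 members, and for 50.2% of all genes tested. Changes of at least 2-fold were found in 2 members, both of them lower, where 6.83% of all genes tested passed this mark, 3.83% lower and 3% higher. INHBB was only just past this mark and lay under it when knockout replicate 2 (-0.99), knockout replicate 3 (-0.99) or parental replicate 1 (-0.98) was left out, so that 1 member remained past it. In bulk RNA, fewer cells with a transcript and less of it per cell cannot be told apart.

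**Figure D1:**
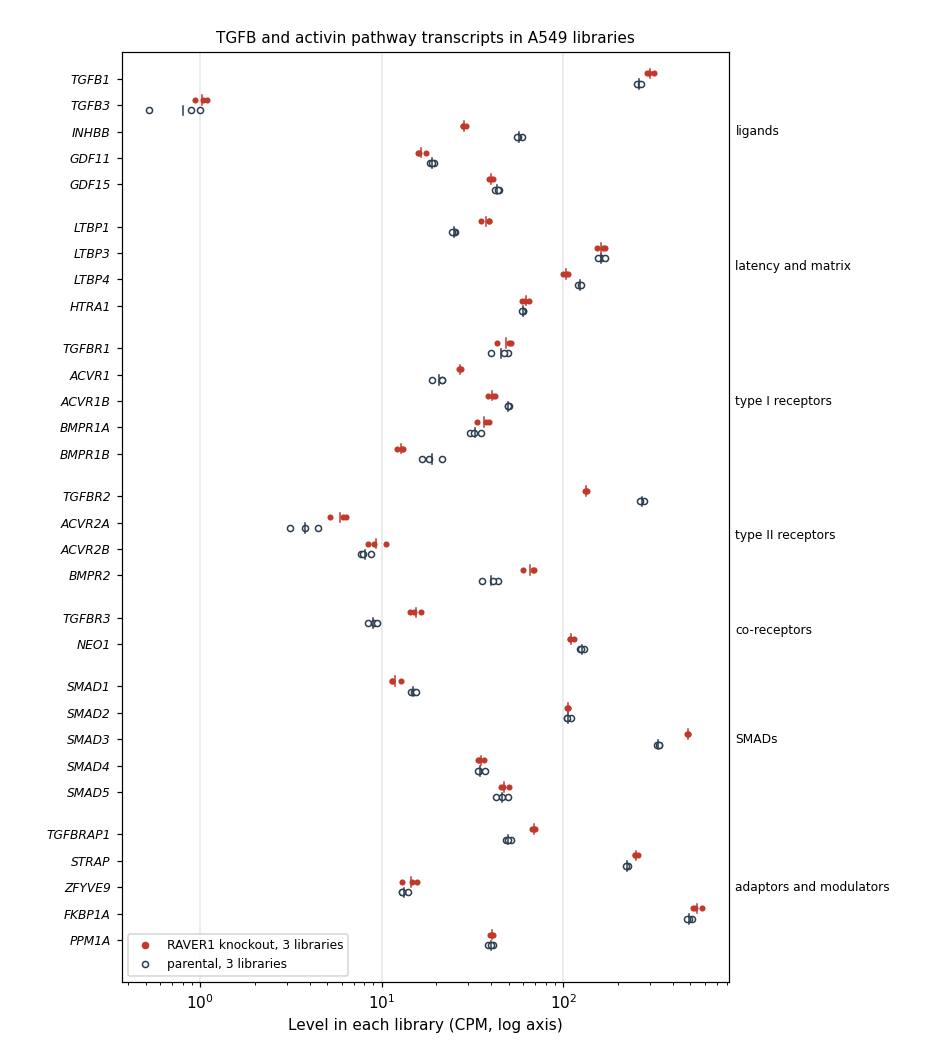
Level of each tested member in every library, in CPM on a log axis, with knockout libraries as filled and parental libraries as open points and the group mean as a short vertical line. TGFBR2 and INHBB stand apart to the left in knockout cells, SMAD3, BMPR2, LTBP1 and TGFBR3 to the right, and SMAD2, SMAD4 and PPM1A lie on top of each other.

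The sequences before the transcription starts of the 2 members with the largest fall and the 2 with the largest rise are shown to place these genes in the genome. Each is the 250 bases before a RefSeq start (build GRCh38.p14), read 5′ to 3′ on the gene's strand. The capitals mark letters of the short SMAD-binding element CAGAC or of the GC-rich SMAD site GGCGC, found on either strand, and neighbouring matches may overlap.
TGFBR2, chr3:30606351-30606600, plus strand: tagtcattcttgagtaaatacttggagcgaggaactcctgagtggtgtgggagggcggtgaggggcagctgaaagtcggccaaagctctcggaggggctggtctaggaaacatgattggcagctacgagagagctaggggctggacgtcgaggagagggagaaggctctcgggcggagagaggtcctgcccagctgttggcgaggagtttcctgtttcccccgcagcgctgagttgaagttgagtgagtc
INHBB, chr2:120345886-120346135, plus strand: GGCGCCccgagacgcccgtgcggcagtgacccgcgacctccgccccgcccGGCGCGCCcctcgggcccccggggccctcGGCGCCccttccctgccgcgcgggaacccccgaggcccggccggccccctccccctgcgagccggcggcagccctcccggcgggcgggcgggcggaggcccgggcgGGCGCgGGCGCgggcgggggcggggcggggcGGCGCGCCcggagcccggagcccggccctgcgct
TGFBR3, chr1:91886152-91886401, minus strand: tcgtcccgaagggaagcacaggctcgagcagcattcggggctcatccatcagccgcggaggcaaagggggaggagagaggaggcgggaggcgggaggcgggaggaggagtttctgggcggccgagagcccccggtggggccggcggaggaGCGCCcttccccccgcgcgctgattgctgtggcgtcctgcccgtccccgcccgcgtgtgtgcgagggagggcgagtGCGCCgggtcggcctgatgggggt
BMPR2, chr2:202376077-202376326, plus strand: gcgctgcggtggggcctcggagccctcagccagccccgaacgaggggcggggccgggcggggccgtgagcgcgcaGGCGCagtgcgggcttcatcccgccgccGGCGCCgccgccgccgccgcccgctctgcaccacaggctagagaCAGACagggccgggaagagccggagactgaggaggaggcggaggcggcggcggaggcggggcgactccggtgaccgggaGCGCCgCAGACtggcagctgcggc
The starts used for TGFBR3 and BMPR2 lie 20184 and 609 bases from the 5′ end of the gene in GENCODE 29, inside the gene for TGFBR3 and before it for BMPR2.

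G and C made up 58.4% of the TGFBR2 window, 89.6% of the INHBB window, 73.6% of the TGFBR3 window and 79.2% of the BMPR2 window. GGCGC was found at 10 positions before INHBB, 4 before BMPR2 and 2 before TGFBR3, and CAGAC at 2 positions before BMPR2. The TGFBR2 window held neither set of letters. Over the windows of all 34 members, 8 held CAGAC and 23 held GGCGC, where 38% and 44.4% of 34943 windows of all genes did. The 2 sets are unlike, since each member has 1 window while the 34943 include further starts of the same gene. Enrichment was not tested. The palindrome GTCTAGAC was in 0 of the 34 and in 0.183% of all windows, the AP-1 letters TGANTCA in 1 and in 6.59%, and the GC box GGGCGG in 23 and in 42.5%. These are matches of letters and not sites of binding.

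Among the ligands, TGFB1 was slightly higher and INHBB and GDF11 were lower in knockout cells. INHBB (ENSG00000163083, hg38 chromosome 2, 120346143 to 120351808, plus strand) encodes the beta B subunit of activin B and inhibin B. It had 29.2, 27.8 and 28.0 CPM in the knockout libraries, against 59.1, 56.1 and 55.5 CPM in the parental libraries. The 2 groups were far apart, and INHBB fell by 1.005 on the log2 scale (SE 0.055, edgeR adjusted p 2.92e-11). TGFB1 (ENSG00000105329, chromosome 19, 41301587 to 41353911, minus strand), which encodes the most widely expressed TGFB isoform, had 298, 287 and 316 CPM in knockout and 263, 255 and 268 CPM in parental libraries. Each knockout library was above each parental library, and the log2 fold change was 0.20 (SE 0.043, edgeR adjusted p 0.00106). The exons of TGFB1 share 215 bases with HNRNPUL1, a gene on the opposite strand with 221332 counts over the 6 libraries. The strand setting of the counting is not given in the sources used here.

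GDF11, a ligand that signals through activin receptors, fell by 0.20 on the log2 scale (SE 0.069), with 15.8 to 17.5 CPM in knockout and 18.4 to 19.5 CPM in parental libraries. Its edgeR adjusted p was 0.0254, and the call was lost without knockout replicate 2 (adjusted p 0.074), knockout replicate 3 (0.117), parental replicate 1 (0.0917) or parental replicate 3 (0.0614). GDF15, a stress-induced ligand whose receptor is GFRAL and not a TGFB receptor, had 38.8 to 41.1 CPM in knockout and 41.8 to 44.1 CPM in parental libraries. The groups of GDF15 did not overlap, but the log2 fold change of -0.11 was not past the threshold (95% interval -0.23 to -0.00084, edgeR adjusted p 0.101). It passed with upper-quartile scaling (-0.15, adjusted p 0.037). TGFB3, another TGFB isoform, was barely expressed, with 42, 41 and 29 counts in knockout and 34, 27 and 17 in parental libraries, and its interval ran from -0.17 to 0.86.

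INHBA, the gene of the activin A subunit, had 2, 8 and 7 counts in the knockout libraries and 0 in each parental library. A parental count of 0 over the group allows up to 3 counts, or 0.0312 CPM on library totals without the TMM adjustment. On the same totals the 17 knockout counts, taken as they stand, lie 4.92-fold above that floor at 0.153 CPM. For the pooled counts, the lower bound of the exact 95% interval was 3.58-fold higher in knockout cells. That bound covers counting error in both groups and not the spread between libraries. INHBA was left out by the low-count filter and passed the threshold when no filter was used (edgeR adjusted p 0.000627).

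The latent-binding proteins moved in opposite directions. LTBP1 (ENSG00000049323, chromosome 2, 32946972 to 33399509), which anchors latent TGFB in the matrix, had 38.9, 38.8 and 35.0 CPM in knockout and 25.4, 25.1 and 24.3 CPM in parental libraries. LTBP1 rose by 0.59 on the log2 scale (SE 0.061, edgeR adjusted p 2.1e-07). LTBP4, which binds TGFB1 in particular, had 103, 99.2 and 107 CPM in knockout and 123, 120 and 126 CPM in parental libraries, and fell by 0.26 (SE 0.044, adjusted p 0.000123). LTBP3, a further latent TGFB-binding protein, had 162 ± 8.49 CPM in knockout and 162 ± 6.44 CPM in parental cells (SD, n = 3 each), with a 95% interval of the log2 fold change from -0.098 to 0.10. The secreted protease HTRA1, known to dampen TGFB signalling, had 62.1 ± 2.75 and 59.8 ± 0.578 CPM (SD, n = 3 each), with an interval from -0.053 to 0.16.

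TGFBR2 and INHBB had the largest falls of all tested members, and differed from each other by less than their SEs. TGFBR2 (ENSG00000163513, chromosome 3, 30606502 to 30694142, plus strand) encodes the type II receptor that binds TGFB directly. It had 134.5, 134.1 and 131.0 CPM in knockout libraries, against 269.5, 278.9 and 264.5 CPM in parental libraries. The libraries of a group lay close together, with a coefficient of variation of 1.47% in knockout and 2.70% in parental cells. The log2 fold change was -1.02 (SE 0.041, 95% interval -1.11 to -0.94, edgeR adjusted p 3.09e-13). Without parental replicate 2 the order turned, with -1.004 for TGFBR2 and -1.015 for INHBB.

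The other type II receptors did not follow it. BMPR2 (ENSG00000204217, chromosome 2, 202376936 to 202567751), the type II receptor of BMP ligands, had 60.3, 68.6 and 67.9 CPM in knockout and 35.5, 43.9 and 40.9 CPM in parental libraries, and rose by 0.71 (SE 0.070, edgeR adjusted p 1.38e-07). ACVR2A, an activin type II receptor also on chromosome 2, had 5.17, 6.08 and 6.38 CPM in knockout and 3.76, 4.44 and 3.14 CPM in parental libraries, and rose by 0.64 (SE 0.13, adjusted p 0.000612). In both genes each knockout library was above each parental library. The exons of ACVR2A share 430 bases with ORC4, a gene on the opposite strand with 5205 counts over the 6 libraries. ACVR2B, its paralogue on chromosome 3, had 8.38 to 10.5 CPM in knockout and 7.64 to 8.76 CPM in parental libraries, groups that overlapped. Its log2 fold change was 0.20 (95% interval -0.0085 to 0.40, edgeR adjusted p 0.119), and it passed without knockout replicate 1 (0.27, adjusted p 0.0273).

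Of the type I receptors, ACVR1 was higher and ACVR1B and BMPR1B were lower, while the TGFB type I receptor TGFBR1 was not called. ACVR1, which signals mainly to the BMP SMADs, had 27.2, 26.7 and 26.8 CPM in knockout and 21.5, 21.6 and 19.0 CPM in parental libraries (log2 fold change 0.38, SE 0.065, edgeR adjusted p 0.000113). ACVR1B, the main activin type I receptor, had 42.1, 38.4 and 40.9 CPM in knockout and 49.6, 50.5 and 49.5 CPM in parental libraries (-0.30, SE 0.054, adjusted p 0.000159). BMPR1B, a BMP type I receptor, had 12.9, 12.1 and 13.1 CPM in knockout and 16.7, 21.5 and 18.1 CPM in parental libraries (-0.56, SE 0.087, adjusted p 3.26e-05). None of these 3 genes had overlapping groups.

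TGFBR1 (ENSG00000106799, chromosome 9, 99104038 to 99154192), the partner of TGFBR2, had 43.3, 51.7 and 50.3 CPM in knockout and 39.9, 49.4 and 46.9 CPM in parental libraries. Replicate 1 was the lowest library of TGFBR1 in each group, the groups overlapped, and the log2 fold change was 0.094 (95% interval -0.066 to 0.25, edgeR adjusted p 0.353). Without knockout replicate 1 it was 0.17 and passed (adjusted p 0.0347). BMPR1A, a BMP type I receptor, had 36.6 ± 2.86 CPM in knockout and 32.7 ± 2.41 CPM in parental cells (SD, n = 3 each). Its log2 fold change of 0.16 had an edgeR adjusted p of 0.0671. Among the fits without the replicate number as a block, the BMPR1A call changed without knockout replicate 1 (0.23, adjusted p 0.00329), without parental replicate 2 (0.22, 0.0282) and without the genes of chromosome 2 (0.18, 0.0457). BMPR1A has 2 pseudogene entries in the table, with 146 counts in knockout and 99 in parental libraries, and reads of such copies can be misassigned. ACVR1C, a type I receptor of activin and NODAL, was all but absent, with 2 counts over the knockout and 3 over the parental libraries, and no fold can be given.

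**Figure D2:**
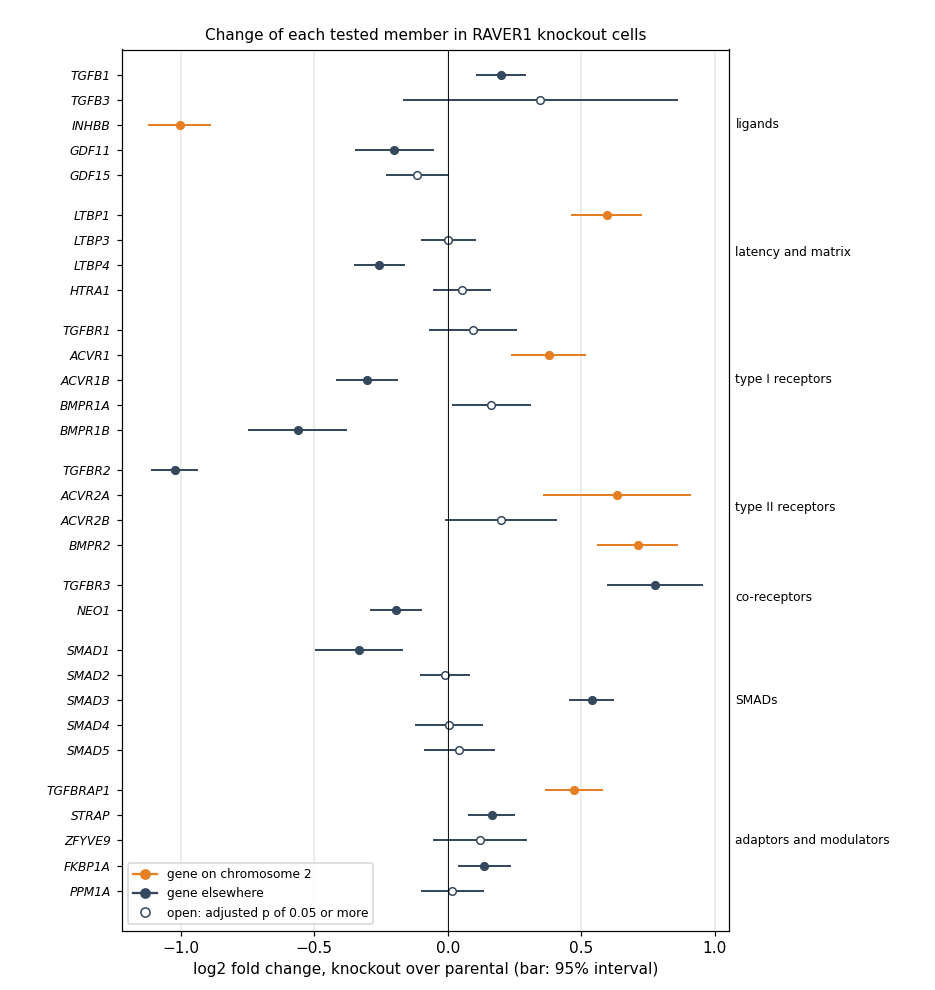
log2 fold change of each tested member, knockout over parental, with its 95% interval, grouped by role. Filled points are past the adjusted p threshold of 0.05, and orange marks the 6 tested members on chromosome 2, of which INHBB alone lies left of 0.

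The co-receptors were split as well. TGFBR3 (ENSG00000069702, chromosome 1, 91680343 to 91906335, minus strand), or betaglycan, presents TGFB ligands to TGFBR2 and is also a co-receptor for inhibin. It had 14.4, 16.5 and 15.1 CPM in knockout and 8.37, 9.12 and 9.42 CPM in parental libraries. TGFBR3 rose by 0.78 on the log2 scale (SE 0.083, edgeR adjusted p 3.81e-07), the largest rise among the tested members. NEO1, a receptor of netrins and repulsive guidance molecules that also acts with BMP receptors, had 115, 108 and 109 CPM in knockout and 124, 130 and 126 CPM in parental libraries. NEO1 fell by 0.19 (SE 0.044, edgeR adjusted p 0.00157). ENG, or endoglin, a co-receptor typical of endothelial cells, had 4, 1 and 3 counts in knockout and 0 in each parental library. On library totals without the TMM adjustment, its 8 knockout counts (0.0722 CPM) lie 2.32-fold above the parental floor. For the pooled counts of ENG, the lower bound of the exact 95% interval was 1.48-fold higher, with counting error only and not the spread between libraries. An antisense gene that shares exon bases with ENG had 91 counts over the 6 libraries.

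SMAD3 stood apart from the other SMADs. SMAD3 (ENSG00000166949, chromosome 15, 67063763 to 67195195) had 484, 488 and 479 CPM in knockout libraries, against 335, 327 and 337 CPM in parental libraries. The coefficient of variation was 0.962% in knockout and 1.63% in parental cells, and SMAD3 rose by 0.54 on the log2 scale (SE 0.038, edgeR adjusted p 1.29e-09). SMAD1, of the BMP set, had 11.3, 12.8 and 11.4 CPM in knockout and 14.5, 15.0 and 15.4 CPM in parental libraries, and fell by 0.33 (SE 0.077, adjusted p 0.00169).

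SMAD2, the closest relative of SMAD3 among the members, had 106 ± 0.439 CPM in knockout and 107 ± 2.67 CPM in parental cells (SD, n = 3 each). Its 95% interval ran from -0.10 to 0.078 on the log2 scale. The shared partner SMAD4 had 35.0 ± 1.48 CPM in knockout and 35.0 ± 1.69 CPM in parental cells (interval -0.12 to 0.13), and SMAD5, of the BMP set, had 47.3 ± 2.36 and 46.0 ± 3.44 CPM (-0.086 to 0.17; SD, n = 3 each). The groups of all 3 overlapped. SMAD9, of the BMP set, had 4, 6 and 2 counts in knockout and 0, 1 and 0 in parental libraries, a ratio of 10.4 with a 95% counting interval of 1.54 to 446.

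Of the adaptors and modulators, 3 of 5 were higher and 0 lower in edgeR. Over all genes tested, 21.3% were higher and 20.1% lower. DESeq2 and limma-voom, run on the same 6 libraries, gave the same numbers for the 5 genes. TGFBRAP1, on chromosome 2, which binds TGFB receptors and SMAD4 and also serves in endosomal tethering, had 69.9, 67.6 and 69.2 CPM in knockout and 51.3, 48.1 and 49.5 CPM in parental libraries (log2 fold change 0.47, SE 0.049, edgeR adjusted p 2.78e-07). STRAP, a WD-repeat protein that dampens TGFB signalling with SMAD7, had 247, 259 and 247 CPM in knockout and 223, 228 and 222 CPM in parental libraries (0.16, SE 0.040, adjusted p 0.00271). FKBP1A, the immunophilin FKBP12 that holds type I receptors inactive, had 578, 528 and 520 CPM in knockout and 509, 491 and 480 CPM in parental libraries (0.14, SE 0.045, adjusted p 0.02). The groups of these 3 genes did not overlap, although the FKBP1A call was lost without knockout replicate 1 (adjusted p 0.0575), parental replicate 2 (0.0529) or parental replicate 3 (0.129) and with upper-quartile scaling (0.0852).

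ZFYVE9, or SARA, which presents SMAD2 and SMAD3 to the receptor, had 12.9, 15.7 and 14.7 CPM in knockout and 13.9, 12.97 and 12.9 CPM in parental libraries. Its groups overlapped (95% interval -0.054 to 0.29, edgeR adjusted p 0.268), and it passed without knockout replicate 1 (0.20, adjusted p 0.0362). PPM1A, a phosphatase of SMAD2 and SMAD3, had 40.3 ± 0.854 CPM in knockout and 39.8 ± 1.28 CPM in parental cells (SD, n = 3 each; interval -0.096 to 0.13).

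Levels of different genes were compared as TPM, counts per base of the deposited gene length scaled to the same total in each library. TGFBR2 was the most abundant type II receptor in each group, with 67.8 ± 1.17 TPM in knockout and 141 ± 5.13 TPM in parental cells (SD, n = 3 each). The 4 type II receptors summed to 91.4 ± 3.17 TPM in knockout and 156 ± 6.77 TPM in parental cells. TGFBR2 made up 74.2% ± 1.68 of that sum in knockout and 90.2% ± 0.723 in parental cells, and BMPR2 20.01% ± 1.15 and 7.30% ± 0.647. The type I receptors summed to 90.8 ± 4.07 and 93.8 ± 6.46 TPM, with ACVR1B, TGFBR1 and ACVR1 at 27.5%, 27.3% and 23.1% in knockout and 33.4%, 25.2% and 17.5% in parental cells.

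Among the ligands TGFB1 led, with 323 ± 17.9 TPM in knockout and 286 ± 7.07 TPM in parental cells, and its share of the ligand sum was 75.4% ± 0.654 in knockout and 66.4% ± 0.592 in parental cells (SD, n = 3 each). INHBB held 7.22% ± 0.337 and 14.6% ± 0.493 of that sum, GDF15 15.7% and 17.1%. The ligand sum itself was 428 ± 19.9 TPM in knockout and 431 ± 7.34 TPM in parental cells. SMAD3 made up 80.6% ± 0.512 of the SMAD sum in knockout and 73.6% ± 1.17 in parental cells, and the sum was 224 ± 6.39 and 172 ± 3.77 TPM. These shares rest on deposited lengths of 36426 bases for SMAD2 and 9330 for SMAD3, so SMAD2 counts weigh little in TPM. In CPM, which leaves length out, SMAD3 and SMAD2 stood at 484 and 106 in knockout and 333 and 107 in parental cells. FKBP1A led the adaptors and NEO1 the co-receptors. Which gene led the latency and matrix group depended on the length used: HTRA1 with the deposited length, and LTBP3 with the length of the longest GENCODE 29 transcript. In the other 6 roles the leader was the same with either length, in knockout and in parental cells.

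**Figure D3:**
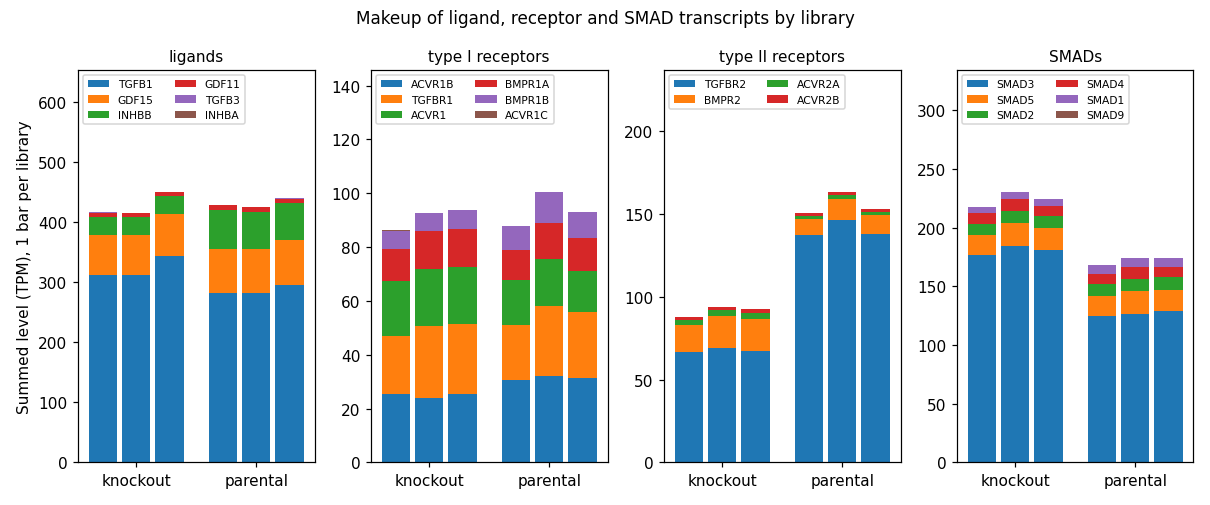
Stacked levels of ligand, type I receptor, type II receptor and SMAD transcripts in TPM, 1 bar per library, with the 3 knockout libraries left of the 3 parental libraries. The type II receptor bars are shorter in knockout cells through their TGFBR2 segment, and the SMAD bars taller through SMAD3. The type I sums lie close together, as do the ligand sums, which leave out TGFB2.

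Within each library, TGFBR2 was set against its partner. The ratio of TGFBR2 to TGFBR1 was 3.10, 2.58 and 2.59 in knockout and 6.74, 5.62 and 5.61 in parental libraries. The ratio of TGFBR2 to BMPR2 was 3.72 ± 0.307 in knockout and 12.4 ± 1.26 in parental cells, and that of SMAD3 to SMAD2 was 17.9 ± 0.197 and 12.2 ± 0.494 (SD, n = 3 each). The groups did not overlap in any of the 3 ratios. The two-sided exact permutation p was 0.1 for each, the smallest that 3 libraries against 3 can give, and is no evidence here, since the 3 pairs were chosen after their values were seen. The size of a ratio depends on the lengths used (3.90 in knockout and 8.48 in parental cells for TGFBR2 to TGFBR1 with the longest transcript). That of SMAD3 to SMAD2 rests on the long SMAD2 entry of 36426 bases, against 9330 for SMAD3. It was 25.3 in knockout and 17.3 in parental cells with the longest transcript, which is also far longer for SMAD2.

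Chromosome 2 carries 7 of the 34 members: LTBP1, TGFBRAP1, INHBB, ACVR2A, ACVR1C, ACVR1 and BMPR2. Genes of chromosome 2 tended to be higher in knockout cells, with a median log2 fold change of 0.42 (quartiles 0.17 and 0.62) over the 1125 tested there, beside -0.013 over the genes elsewhere. Of the 6 tested members on chromosome 2, 5 were higher and 1 was lower, where 72.4% of all tested genes of that chromosome were called, 66.8% higher and 5.6% lower. Of the 24 tested members elsewhere, 5 were higher and 7 lower, where 39.1% of all genes tested elsewhere were called, 18% higher and 21.1% lower. Of the 10 members called higher, therefore, 5 lie on chromosome 2 (LTBP1, TGFBRAP1, ACVR2A, ACVR1 and BMPR2) and 5 elsewhere (TGFB1, TGFBR3, SMAD3, STRAP and FKBP1A).

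The members of chromosome 2 were set against the other genes of that chromosome. ACVR1 (log2 fold change 0.38) was above 45.4% of the tested genes of the chromosome and TGFBRAP1 (0.47) above 56.1%, and the 25 nearest tested genes had medians of 0.45 around ACVR1 and 0.50 around TGFBRAP1. LTBP1 (0.59) and ACVR2A (0.64) were above 71.0% and 76.0% of the chromosome's genes, with neighbour medians of 0.60 and 0.40. BMPR2 (0.71) stood highest, above 82.0%, with a neighbour median of 0.51. The 95% interval of BMPR2 lay 0.14 to 0.44 above the chromosome's median, and that of LTBP1 0.047 to 0.30 above it. The 95% intervals of ACVR1, TGFBRAP1 and ACVR2A included the chromosome's median. INHBB went the other way: only 23 of the 1125 genes had a lower value, it lay 1.42 below the chromosome's median (95% interval -1.54 to -1.31), and its 25 neighbours had a median of 0.39, with 16 of them higher and 2 lower. The part of the chromosome's shift in the values of these members was not tested.

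**Figure D4:**
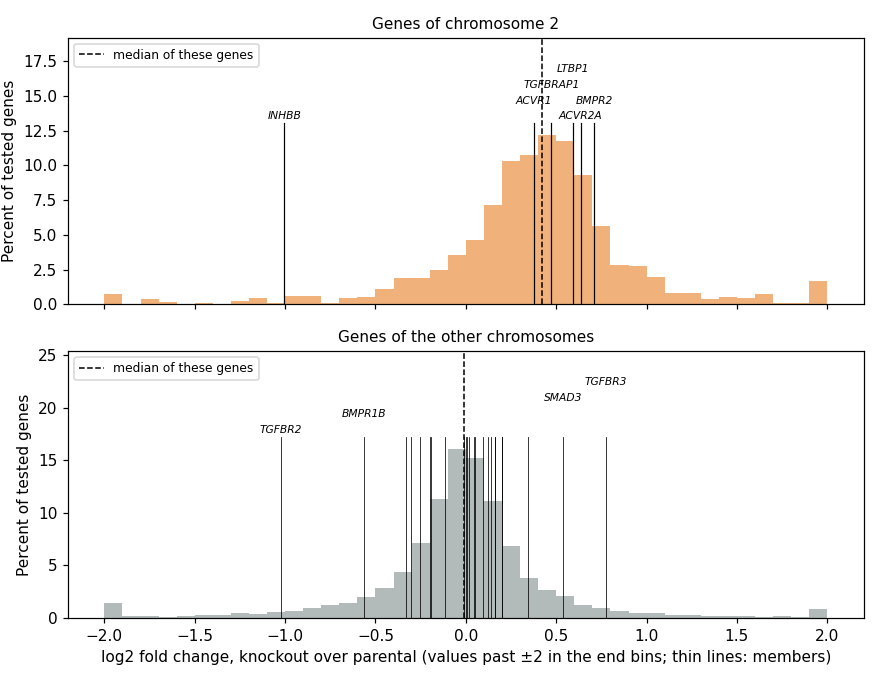
Distribution of log2 fold changes, knockout over parental, over the tested genes of chromosome 2 (upper panel) and of the other chromosomes (lower panel), in percent of genes, with values past the axis limits placed in the end bins. Thin lines mark the members and dashed lines the medians of 0.42 and -0.013. INHBB lies in the left tail of its chromosome's distribution, with 23 of the 1125 genes lower. The other 5 members lie above 45.4% (ACVR1) to 82.0% (BMPR2) of these genes.

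The rest of the pathway was described by a list of 68 genes. Of these, 54 were tested, and 11 were higher and 12 lower in knockout cells, 42.6% in all and thus close to the 41.4% of all genes tested, with a median log2 fold change of 0.057. Of 21 extracellular genes 8 were tested, 3 higher and 2 lower. TGFB2, a TGFB ligand not among the 34, had 83.1, 93.3 and 92.8 CPM in knockout and 48.6, 56.3 and 52.7 CPM in parental libraries and rose by 0.77 (SE 0.060, edgeR adjusted p 4.75e-09). FURIN, the protease that cleaves TGFB precursors, fell by 0.32, and THBS1, which can activate latent TGFB, fell by 0.18. FSTL3, a binding protein that blocks activins, was higher by 0.15, a call lost without parental replicate 2 (edgeR adjusted p 0.114) and with upper-quartile scaling (0.0701), and follistatin (FST) stood at 0.16 (95% interval -0.076 to 0.39).

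All 21 inhibitors and turnover genes were tested, with 4 higher and 6 lower. SMAD7, the inhibitory SMAD that is itself a target of TGFB signalling, had 33.3, 34.4 and 36.3 CPM in knockout and 25.4, 24.9 and 28.3 CPM in parental libraries and rose by 0.40 (SE 0.064, edgeR adjusted p 4.85e-05). SKIL, a repressor of SMAD complexes, rose by 0.42 (SE 0.094), with groups that overlapped, and the adaptor DAB2 by 0.33. The ubiquitin ligase NEDD4L fell by 0.43, the endosomal phosphatase MTMR4 by 0.42 and the decoy receptor BAMBI by 0.20. SMURF1, a ubiquitin ligase of SMADs and receptors, was lower by 0.16 (-0.16), a call lost without knockout replicate 3, parental replicate 1 or parental replicate 3 (edgeR adjusted p 0.052 to 0.0898). The exons of SMURF1 share 735 bases with TRRAP, a gene on the opposite strand with 39248 counts over the 6 libraries. SMAD6 (0.097), SKI (0.029) and SMURF2 (-0.072) were not called.

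Of 10 tested nuclear cofactors 0 were higher and 1 was lower in edgeR, DESeq2 and limma-voom, and 2 had an unadjusted p under 0.05 in edgeR. The one called was TFDP1, a partner of E2F factors, at -0.14, a call lost without parental replicate 1 (adjusted p 0.0741). Of 15 genes of the SMAD-independent arm 4 were higher and 3 lower. PARD6A, the polarity protein that TGFBR2 phosphorylates at tight junctions, fell by 0.89 (SE 0.11), with 3.66 ± 0.335 CPM in knockout and 6.77 ± 0.522 CPM in parental cells (SD, n = 3 each). The TAK1 partner TAB1 fell by 0.30, and the GTPase RHOA and the phosphatase subunit PPP2CB rose by 0.20 and 0.27.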

How the data were processed

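Polyadenylated RNA of 3 RAVER1 knockout and 3 parental libraries was sequenced. The authors deposited raw counts per gene with a gene length. Per the submitters' processing notes, cutadapt 2.8, HISAT2 2.1.0, SAMtools 1.10 and featureCounts 2.0.0 were used with hg38. For annotation, strand setting and multi-mapping reads, nothing was found (not given in the sources used here). Genes were joined by ID to GENCODE 29 (58437 of 60624), which gave positions. The counts were tested with edgeR 4.0.16 in R 4.3.3 (TMM, filterByExpr, quasi-likelihood F-test, no covariate, Benjamini-Hochberg over all genes tested, threshold 0.05). SE is the log2 fold change divided by the root of F, and intervals are 95%. CPM and TPM were computed from the counts, and a count of 0 over a group was read as at most 3 counts. The floors, folds and exact intervals of genes under the filter use library totals without the TMM adjustment. The intervals of log2 fold changes include the spread between libraries, while the floors and the exact intervals of genes under the filter cover counting error only. Alternatives were RLE and upper-quartile scaling, 2 other filters, DESeq2 1.42.0, limma-voom (limma 3.58.1), a replicate block, each library left out, a threshold of 0.01, other gene lengths, a window of 51 neighbours and the removal of chromosome 2. All 34 members were named, as were 10 pathway genes chosen by symbol and up to 4 called genes with the smallest adjusted p of each other list. The members and lists were chosen with earlier results of these data known.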

Additional observations from a re-analysis of the deposited data

How the results depend on the processing

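Of the 18 members called, 16 kept their direction and their call under every alternative in which they were tested, and the exceptions were FKBP1A and GDF11. Without the genes of chromosome 2, 6 members were called higher, 0 in the latency and type II receptor groups, and 1 ligand was lower. The members of chromosome 2 were then not tested, and BMPR1A was newly called (0.18, adjusted p 0.0457), for which the cause was not tested. With no low-count filter, 8 members off chromosome 2 were higher, and the ligands, co-receptors and SMADs had 2 higher each, through INHBA, ENG and SMAD9. With an adjusted p under 0.01, 1 ligand was lower. Leaving out 1 library at a time gave 1 to 2 ligands lower and 1 to 3 type I receptors higher. Off chromosome 2 it gave 4 to 8 members higher. The 3 and the 8 came without knockout replicate 1. That fit also called 3837 genes higher and 3619 lower over all genes, beside 3543 and 3343 with all libraries. With the longest transcript's length 12 of 14 role leaders were the same. With 51 neighbours in place of 25, the neighbour median of LTBP1 moved from 0.60 to 0.50.

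Directions reversed for genes near 0 that were not called. LTBP3 stood at -0.0028 with RLE scaling, -0.0027 in DESeq2, -8.64e-05 in limma-voom and -0.032 with upper-quartile scaling, where SMAD4 was -0.027, PPM1A -0.016 and SKI -0.0042. SMAD2 was 0.0058 without chromosome 2. With 1 library left out, LTBP3 ranged from -0.030 to 0.045, SMAD2 from -0.03 to 0.0090, SMAD4 from -0.028 to 0.045, SMAD5 from -0.0081 to 0.099, PPM1A from -0.0069 to 0.039 and SKI from -0.0020 to 0.048. The cause was not tested.

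With the replicate number as a block, 12 members were higher and 9 lower, with BMPR1A (edgeR adjusted p 0.00417), TGFBR1 (0.0463) and GDF15 (0.0224) newly called. Under the block 3 type I receptors were higher, and 17 other pathway genes were higher. Over all genes the block gave 4275 higher and 4071 lower. The deviations of same-numbered libraries correlated at 0.13, 0.029 and 0.014, and not every library correlated best with its own number, so the numbers were not taken as a pairing.

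With 3 libraries a group and no stated independent clones, small changes and genes of few counts (TGFB3, INHBA, ENG, SMAD9 and ACVR1C) are the least certain.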
